A study of Mus musculus with 7 samples.

Results

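Nuclear hormone receptors are transcription factors that carry a DNA-binding region with zinc fingers and, in most members, a pocket for a small lipophilic ligand such as a steroid, a retinoid, a bile acid or a fatty acid. Steroid receptors are held by heat shock chaperones until their hormone arrives and then bind DNA in pairs, whereas the retinoid, vitamin D, PPAR, liver X and farnesoid X receptors pair with a retinoid X receptor. Others, among them the NR4A, NR2F and HNF4 proteins, have no known hormone or need none. In pancreatic islets the family is known for HNF4A, which is required for normal insulin secretion, for the estrogen and glucocorticoid receptors, and for the clock repressors NR1D1 and NR1D2.

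The 43 receptor genes considered here were taken by symbol from the gene table of islet RNA from 7 mice on day 15 of pregnancy, and all 43 were found among its 34082 gene names. Of these, 28 reached a mean of 0.5 TPM, the unit of transcript abundance corrected for length and library total, and were tested together with the other genes at that level, 14840 in all, and 15 fell below it.

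Both groups were C57BL/6 females bred to wild-type males, and both were labelled as deleted for the prolactin receptor, in β-cells or in all tissues. The 4 βPrlR+/- mice were described as having an inducible deletion in β-cells from a floxed exon 5, with the Pdx1CreER transgene, in which the Pdx1 promoter drives Cre recombinase fused to a ligand-binding region of an estrogen receptor, and they were given tamoxifen, 4 mg a day for 5 days at 8 weeks of age. Pdx1 is active in the embryonic pancreatic bud and in adult β-cells. The 3 Prlr+/- mice were heterozygous for a null allele in all tissues, had no Cre and received no tamoxifen, so that the extent of the deletion, Cre and tamoxifen cannot be told apart in any difference below. The methods describe the conditional mice as heterozygous and the design text as homozygous, and the 2 sources put the age at 3 to 4 months at breeding or 4 to 5 months at study. The sample titles of the 4 conditional mice contain CkoWt, an abbreviation that the sources used here do not explain, and their labels give the knock-out tissue as β-cells. What allele these 4 mice carried can therefore not be settled here, and the name βPrlR+/- follows the methods. No group is described as wild type in the labels. Each mouse gave 1 library, from 100 to 200 hand-picked islets, which the study's methods describe as cultured overnight. The nuclear receptors are compared between islets of mice labelled as deleted for the prolactin receptor in all tissues and of mice labelled as deleted in β-cells.

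The values were scaled by 1 factor per mouse of 0.8826 to 1.109. The insulin genes took 46.1% to 58.9% of the deposited TPM. The prolactin receptor itself was at a mean of 45 ± 8.18 scaled TPM in βPrlR+/- (SD, n = 4) and 40.7 ± 8.96 in Prlr+/- (SD, n = 3), and a whole-transcript value does not isolate the deleted exon. The islet label held, since 10 of 10 measured β-cell markers passed the level filter and their summed level was 4.51e+05 to 7.15e+05. Acinar RNA, from the exocrine tissue around islets, was present in each mouse, its list summing to 4.55e+03 to 3.93e+04 in βPrlR+/- and 1.28e+04 to 3.19e+04 in Prlr+/-. All 5 adipocyte markers together summed to 0.149 at most. In whole islets, fewer cells of a type and less RNA per cell cannot be told apart.

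Few genes differed between the groups in this design. By limma's moderated test with Benjamini-Hochberg adjustment, 10 genes, 0.0674% of those tested, had an adjusted p under 0.05. Among the 28 tested receptors 1 did, ESR1, which was lower in Prlr+/-. At an unadjusted p under 0.05 there were 2 receptors, ESR1 and NR4A1, where 4.52% of all tested genes passed. The 7 values separated the groups without overlap in 1 tested receptor, again ESR1, against 4.95% of tested genes. Over all 43 receptors 2 did, ESR1 and NR1I2, against 4.82% of the 27935 genes above 0 in any mouse.

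By level, 11 receptors had a mean of at least 10 scaled TPM over the 7 mice, 15 lay between 1 and 10, and 17 were below 1. After ESR1, whose mean came from the βPrlR+/- mice, the order ran VDR, NR1D2, NR1D1, NR1H2, NR2F6, NR3C1, RXRA, RXRB, NR4A1 and PPARD. Many neighbours in the order could not be ranked in single mice. Of the 42 neighbouring pairs, 5 kept their order in all 7 mice and 14 in at least 6. The 10 highest receptors, from ESR1 to NR4A1, were the same under each of 3 other scalings. Leaving out ESR1, the receptors together summed to between 290 and 315 scaled TPM in each mouse.

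**Figure D1:**
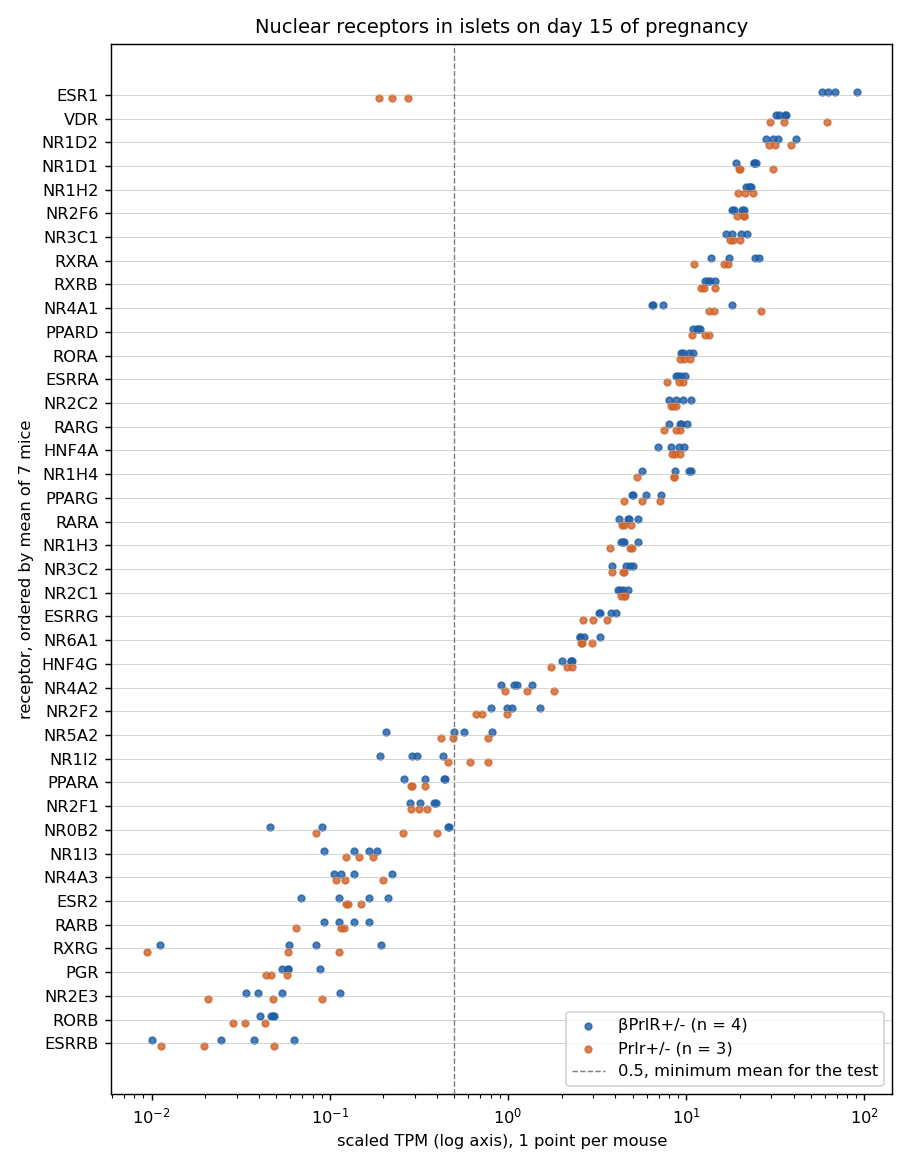
Level of each receptor in each mouse, in scaled TPM on a log axis, for βPrlR+/- (4 mice) and Prlr+/- (3 mice), ordered by the mean of 7 mice. NR5A1 and NR0B1, at 0 in some or all mice, are not drawn. ESR1 is at 57.5 to 90.7 in βPrlR+/- and at 0.19 to 0.275 in Prlr+/-, whereas the points of the 2 groups overlap in every other receptor drawn except NR1I2.

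ESR1, the estrogen receptor α, stood at 90.7, 62.3, 68.2 and 57.5 scaled TPM in βPrlR+/- mice 1 to 4. In Prlr+/- mice 1 to 3 it stood at 0.19, 0.222 and 0.275. The lowest βPrlR+/- mouse was 209 times the highest Prlr+/- mouse, and the ratio of the group means was 304. As log2(scaled TPM + 1), where low genes change less than in linear TPM, the difference was −5.82 (SE 0.15, 95% interval −6.17 to −5.48, limma adjusted p = 1e-05). The exact two-sided permutation test over the 35 ways of splitting 7 mice into 4 and 3 gave 0.0286, the smallest p it can give. ESR1 ranked 1st of the 43 receptors in βPrlR+/- and 32nd in Prlr+/-.

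The difference lay on 1 of the 12 ESR1 transcripts. The predicted RefSeq transcript XM_006512435.2 was at 89.9, 61.1, 68 and 57.2 scaled TPM in βPrlR+/- islets, against 0, 0 and 0.0508 in the Prlr+/- mice. It held 98% to 99.7% of the ESR1 signal in each βPrlR+/- mouse. It was also the 1 receptor transcript called among the 69 that were tested (limma adjusted p = 1.15e-05), where 0.021% of all tested transcripts were called.

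The other 11 ESR1 transcripts summed to 0.818, 1.26, 0.238 and 0.282 in βPrlR+/- mice 1 to 4, against 0.19, 0.222 and 0.224 in Prlr+/- mice 1 to 3. All 4 βPrlR+/- values lay above the Prlr+/- values, but 2 of them were close to those. The test on their log2 difference, −0.40, did not separate the groups (exact permutation p = 0.171, two-sided). With these transcripts alone, ESR1 would rank 27th of 43 in βPrlR+/- and remain 32nd in Prlr+/-. NM_007956.5, a curated ESR1 transcript, was at 0.25 and 0.434 in βPrlR+/- mice 1 and 2 and below 0.001 in mice 3 and 4, and at 0.146 in Prlr+/- mouse 3 and below 0.001 in Prlr+/- mice 1 and 2. The mice with the ESR1 signal are those with the CreER transgene, and whether reads from the transgene were placed on XM_006512435.2 was not tested.

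**Figure D2:**
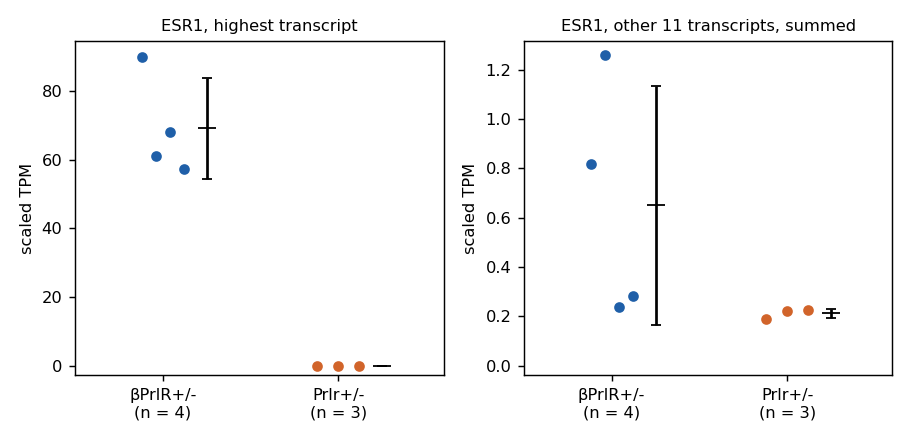
ESR1 by transcript, in scaled TPM per mouse, with the group mean and SD beside the points (4 βPrlR+/- and 3 Prlr+/- mice). The left panel holds the highest transcript, at 57.2 to 89.9 against at most 0.0508, and the right panel, on its own axis, the sum of the other 11 transcripts, at 0.238 to 1.26 against 0.19 to 0.224.

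ESR2 and PGR, the other sex steroid receptors among the 43, were near the bottom of the order. ESR2, the estrogen receptor β, was at 0.0688, 0.165, 0.212 and 0.113 scaled TPM in βPrlR+/- islets, against 0.126, 0.15 and 0.123 in the Prlr+/- mice. PGR, the progesterone receptor, was at 0.0542, 0.0878, 0.0582 and 0.0586 in βPrlR+/- and at 0.044, 0.0578 and 0.0467 in Prlr+/-. The groups overlapped for both (exact permutation p = 0.857 and 0.143, two-sided), and both were under the minimum for the model.

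Of 17 known estrogen receptor target genes on the list used, 10 were tested and none was called by limma at an adjusted p under 0.05. Their estimates fell evenly, 5 lower and 5 higher in Prlr+/-, with a median log2 fold change of −0.00 against 0.0042 for all genes tested. A pair of the 10 tested genes did not overlap between the groups, where 4.95% of all tested genes did not. IGFBP4, a binding protein of insulin-like growth factors, was at 5.29, 4.93, 4.63 and 5.02 in βPrlR+/- and at 2.41, 3.11 and 3.93 in Prlr+/- (log2 fold change −0.54, SE 0.12, limma adjusted p = 0.543). CCND1, cyclin D1, was at 31.2 to 36.9 in βPrlR+/- and at 38.5 to 52 in Prlr+/- (log2 fold change 0.31, SE 0.12, limma adjusted p = 1.0). Among the untested genes of the list, GREB1 at 0.0213 to 0.0334 against 0.00491 to 0.0191 and CA12 at 0.0622 to 0.111 against 0.0315 to 0.0328 did not overlap either, both lower in Prlr+/-, where 4.82% of all genes above 0 did not. The highest of the list, XBP1 and CTSD, had group means of 169 and 174 and of 152 and 151, in βPrlR+/- and Prlr+/-.

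The estrogen-related receptors, orphan relatives that drive mitochondrial genes, were present without a detected group difference. ESRRA ranged from 7.82 to 9.81 scaled TPM and ESRRG from 2.63 to 4.04 over the 7 mice, while ESRRB did not exceed 0.0629. The log2 fold change was −0.06 (SE 0.08) for ESRRA and −0.18 (SE 0.11) for ESRRG. With single mice left out, that of ESRRG ran from −0.27, without Prlr+/- mouse 1, to −0.10, without Prlr+/- mouse 2. A predicted ESRRA transcript, XM_017318208.1, was at 1.42, 0.838, 1.79 and 0.949 in βPrlR+/- and at 1.2e-08, 2.2e-08 and 0.883 in Prlr+/- (log2 fold change −0.84, SE 0.27, unadjusted p = 0.0149 and adjusted p = 1.0 among all transcripts by limma). All 13 listed targets of these receptors, ESRRA itself among them, were tested and none was called. Their log2 fold changes ran from −0.06, that of ESRRA, to 0.20. ATP5B and NDUFA4, which encode parts of ATP synthase and complex I or IV of the respiratory chain, were the highest, with group means of 240 and 241 and of 229 and 222.

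The corticosteroid receptors were steady. NR3C1, the glucocorticoid receptor, was at 18.1, 16.8, 21.8 and 20.4 scaled TPM in βPrlR+/- islets, against 19.9, 18.3 and 17.6 in the Prlr+/- mice. The ranges overlapped and the log2 fold change was −0.04 (95% interval −0.27 to 0.18). NR3C2, the mineralocorticoid receptor, was at 3.81 to 5.03 (log2 fold change −0.08, SE 0.10). One of its predicted transcripts, XM_006530575.3, was at 2.15 to 3.12 in βPrlR+/- and at 1.08 to 1.83 in Prlr+/- (log2 fold change −0.52, SE 0.16), but its adjusted p was 1.0 among all transcripts by limma. How kallisto shared reads between transcripts that overlap can move such a value.

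All 13 glucocorticoid receptor targets passed the filter and none was called. PDK4, the kinase that switches off pyruvate dehydrogenase and which is on the PPAR target list too, was at 12.5, 16.6, 18.2 and 14.9 in βPrlR+/- and 12.9, 6.28 and 10.6 in Prlr+/- (log2 fold change −0.64, SE 0.22, limma adjusted p = 0.962). Its lowest value was in Prlr+/- mouse 2, and the value of Prlr+/- mouse 1 lay within the βPrlR+/- range. The metallothioneins Mt1 and Mt2 were the highest, with Mt1 at 1120 to 1790 in βPrlR+/- and 1090 to 1800 in Prlr+/-, and Mt2 at 695 to 1200 and 710 to 1270. The 12 chaperones of steroid receptors were tested without a call, the highest, HSPA8 and HSP90AB1, having group means of 451 and 519 and of 352 and 376. Of the 22 coactivators and corepressors 20 were tested and none was called, with log2 fold changes of −0.17 to 0.10. KDM1A, a histone demethylase, at 43.5 to 50.3, and TBL1X, a corepressor subunit, at 28.4 to 36.7, were the highest of them. Among the enzymes that make or break down steroids 8 of 14 matched genes were tested and none was called. HSD17B12 ranged from 38.5 to 48 and HSD17B11 from 23.9 to 31.8.

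VDR, the vitamin D receptor, had the highest mean of the receptors in Prlr+/- islets and the 2nd highest in βPrlR+/-. The rank in Prlr+/- rested on mouse 2, without which the mean of NR1D2 in that group would be higher. In Prlr+/- mouse 1 NR1D2 was at 38.7, above VDR. It was at 35.8, 33.1, 36.3 and 31.7 scaled TPM in βPrlR+/- mice 1 to 4, against 29.6, 61.3 and 35.4 in Prlr+/- mice 1 to 3. Prlr+/- mouse 2 was 1.79 times the median of the other 6 mice, which lay between 29.6 and 36.3. The log2 fold change, 0.22 (SE 0.22, limma adjusted p = 1.0), rested on that mouse and was −0.07 without it.

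The retinoid receptors were led by RXRA and RXRB, the partners that many other receptors need. RXRA was at 13.7, 25.5, 17.3 and 24.4 in βPrlR+/- islets, against 17.1, 11.1 and 16.2 in the Prlr+/- mice. The highest 3 values were in βPrlR+/-, but the groups overlapped. Its log2 fold change of −0.41 was the lowest of the receptors other than ESR1 (SE 0.24, 95% interval −0.96 to 0.15, limma adjusted p = 1.0). It was −0.23 without Prlr+/- mouse 2, where NR2F2 was lower at −0.30, and −0.57 without βPrlR+/- mouse 1. A predicted transcript, XM_006497805.1, held 91.8% to 93.8% of it in each mouse. RXRB was at 12.1 to 14.5 over the 7 mice and RXRG at no more than 0.195. Among the retinoic acid receptors RARG was at 7.48 to 10.1, RARA at 4.17 to 5.38 and RARB at 0.0643 to 0.167.

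Of the 9 retinoic acid receptor targets 3 were tested, and all 3 had lower estimates in Prlr+/- without a call. TGM2, a transglutaminase, was at 2.93, 2.43, 3.58 and 3 in βPrlR+/- and at 2, 1.85 and 1.98 in Prlr+/- (log2 fold change −0.43, SE 0.10, limma adjusted p = 0.607). DHRS3, a retinal reductase, overlapped between the groups, at 4.02 to 4.9 and 2.83 to 4.33. Beside these values, all 10 endothelial markers had lower estimates in Prlr+/-, with a median log2 fold change of −0.24 and a summed level of 198 to 234 in βPrlR+/- and 166 to 205 in Prlr+/-. Their part in the lower values was not tested. DHRS3 is also on the list of retinoid and vitamin D enzymes, of which 7 of 16 were tested and none was called. RBP4, the retinol carrier of blood, at 64.5 to 137, and RDH11, a retinol dehydrogenase, at 7.75 to 10.7, were its highest genes.

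The receptors of fatty acids, oxysterols and bile acids differed more in level than between groups. PPARD was at 10.8 to 13.4 scaled TPM over the 7 mice, PPARG at 4.48 to 7.18 and PPARA at 0.262 to 0.444. NR1H2, the widely expressed liver X receptor, was at 21.7, 23.2, 22.5 and 22.9 in βPrlR+/- and at 19.4, 23.6 and 21.3 in Prlr+/-, and NR1H3, its relative, was at 3.72 to 5.33. NR1H4, the farnesoid X receptor that senses bile acids, was at 5.68, 10.6, 8.61 and 10.3 in βPrlR+/- and at 8.49, 5.29 and 8.59 in Prlr+/-. Its lowest values came from 1 mouse of each group, and the log2 fold change was −0.20 (SE 0.23). It was −0.0032 without Prlr+/- mouse 2, −0.11 and −0.12 without βPrlR+/- mice 2 and 4, and −0.30 to −0.38 without βPrlR+/- mouse 1, Prlr+/- mouse 1 or Prlr+/- mouse 3.

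None of the 15 tested PPAR targets or of the 8 tested liver X and farnesoid X targets was called. UCP2, a mitochondrial carrier, was at 224 to 328 in βPrlR+/- and 199 to 289 in Prlr+/-. FABP4, a fatty acid binding protein, was at 63.8, 120, 73 and 81.1 in βPrlR+/- and at 72.2, 28.3 and 76.7 in Prlr+/- (log2 fold change −0.59, SE 0.37). The lowest FABP4 value was in Prlr+/- mouse 2, and those of the other Prlr+/- mice lay within the βPrlR+/- range. LPCAT3 and SREBF1, an enzyme and a transcription factor of lipid synthesis, were at 35.4 to 50.8 and 18.2 to 23.4 over the 7 mice.

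NR1I2, the pregnane X receptor of drug metabolism, was low. Its groups did not overlap, which held for 4.82% of all genes above 0 in any mouse. It was at 0.308, 0.432, 0.191 and 0.291 scaled TPM in βPrlR+/- islets, against 0.769, 0.614 and 0.463 in the Prlr+/- mice. Each Prlr+/- value exceeded each βPrlR+/- value, with the closest pair at 0.463 and 0.432, and the means were 0.306 and 0.615. The exact two-sided permutation test, on log2 values, gave 0.0571. Its highest transcript, the curated NM_010936.3, overlapped between the groups. That transcript was at 0.264, 0.269, 0.173 and 0.133 in βPrlR+/- and at 0.358, 6.56e-05 and 0.0435 in Prlr+/-. When all 27935 genes above 0 were fitted, the log2 fold change was 0.31 (SE 0.08, limma adjusted p = 0.812). NR1I3, its relative, was at 0.0922 to 0.185.

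NR1D1 and NR1D2 repress the clock gene ARNTL and are themselves driven by the clock. NR1D2 was at 32.9, 28, 41.4 and 30.8 scaled TPM in βPrlR+/- mice 1 to 4, against 38.7, 31.5 and 29.1 in Prlr+/- mice 1 to 3. NR1D1 was at 24, 24.5, 18.9 and 24.1 in βPrlR+/- and at 19.8, 20 and 30.5 in Prlr+/-. Thus the mice highest in NR1D2, βPrlR+/- mouse 3 and Prlr+/- mouse 1, were among the 3 lowest in NR1D1. Neither differed between groups, with log2 fold changes of −0.00 (SE 0.15) and 0.01 (SE 0.17).

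The planned relation set NR1D1 against the mean of 8 genes of the evening arm of the clock, which include DBP, TEF, HLF, CIART and the 3 PER genes. Pearson's r was −0.66 over the 7 mice (permutation p = 0.121, adjusted over 4 relations 0.161) and Spearman's rho −0.93 (permutation p = 0.00675), and r was −0.10 without the 2 mice farthest from the median of the list, Prlr+/- mouse 1 and βPrlR+/- mouse 3. The linear relation therefore rested on those mice.

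After these values had been seen, 5 further relations were computed and adjusted among themselves. NR1D1 followed the mean of ARNTL, NPAS2, NFIL3, CLOCK and CRY1, genes of the opposite phase, with r = 0.94 and rho = 0.93 (permutation p = 0.00198 and 0.00675, adjusted p of r 0.00331), and r = 0.83 without the 2 mice farthest from the median. Without Prlr+/- mouse 3 alone it was 0.85, with an adjusted permutation p of 0.0602. NR1D2 followed the 8 evening genes, with r = 0.97 and rho = 1.0 (permutation p = 0.000198 and 0.000397, adjusted p of r 0.000992), and r = 0.84 without 2 mice. ARNTL, which pairs with CLOCK, was at 2.24, 3.97, 1.56 and 3.36 in βPrlR+/- islets, against 1.28, 1.93 and 5.62 in the Prlr+/- mice. DBP was at 50.9, 25, 47.4 and 31.4 in βPrlR+/- and at 61.2, 39.9 and 40.1 in Prlr+/-. Within a group there were too few mice for a correlation, and no time of day or batch is given in the sources used here. RORA, which activates ARNTL, was at 9.27 to 10.9, and RORB at 0.0286 to 0.0486.

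The promoters of the pair are shown because the 2 receptors tended in opposite directions between mice, with r = −0.76 and rho = −0.93 (permutation p = 0.0478 and 0.00675), although among the 351 receptor pairs the adjusted p of r was 0.47, and r was −0.68 without 2 mice. Each is the 250 bases before the gene's start from RefSeq on GRCm38.p6, 5′ to 3′ on the gene's strand, and capitals mark AGGTCA, a core site of many nuclear receptors, searched on both strands.
NR1D1, chr11:98775378-98775627, minus strand: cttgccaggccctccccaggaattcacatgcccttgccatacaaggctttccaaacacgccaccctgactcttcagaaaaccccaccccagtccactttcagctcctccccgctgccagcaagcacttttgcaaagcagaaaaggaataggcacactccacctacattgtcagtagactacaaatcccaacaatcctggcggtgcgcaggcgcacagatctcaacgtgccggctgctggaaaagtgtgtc
NR1D2, chr14:18239107-18239356, minus strand: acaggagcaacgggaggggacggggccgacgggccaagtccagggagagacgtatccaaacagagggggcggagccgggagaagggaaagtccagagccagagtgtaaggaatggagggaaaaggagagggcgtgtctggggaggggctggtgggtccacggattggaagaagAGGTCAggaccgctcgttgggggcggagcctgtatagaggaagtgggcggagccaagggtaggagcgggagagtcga
NR1D2 holds 1 copy, at −77 from the start, and these letters are not in the NR1D1 window. AGGTCA is in 14% of all 32851 promoter windows and in 16.7% of the 60 windows of the 40 receptor genes matched. CACGTG, the site of the clock's activators, is in neither window shown, in 6.02% of all windows and in 6.67% of the receptor windows.

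The NR4A receptors are immediate early genes without a hormone pocket. NR4A1 was at 6.54, 7.37, 18.1 and 6.43 scaled TPM in βPrlR+/- mice 1 to 4, against 13.5, 14.4 and 26.4 in Prlr+/- mice 1 to 3. βPrlR+/- mouse 3 lay among the Prlr+/- mice, and the other 3 βPrlR+/- mice lay below them. Its log2 fold change of 0.91 was the highest of the receptors (SE 0.38, 95% interval 0.02 to 1.80), with an unadjusted p of 0.0458 but an adjusted p of 1.0 by limma, and the exact permutation p was 0.114 (two-sided). It was 0.62 to 1.23 when single mice were left out. Of the receptors tested it varied most within groups, with an SD of 0.60 on the log2 scale, above 95.9% of the tested genes.

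No relation of NR4A1 with the other immediate early genes, 9 of which were tested without a call, was established. Against the mean of their list r was 0.17 (permutation p = 0.711, adjusted over 4 relations 0.711) and rho was 0.04 (permutation p = 0.963), and without Prlr+/- mouse 3 and βPrlR+/- mouse 2 r was −0.81 (permutation p = 0.15). BTG2 was at 45.5, 45, 28.6 and 40 in βPrlR+/- and at 33.2, 32.3 and 54.5 in Prlr+/-, and JUNB was at 13.7 to 31.7 in βPrlR+/- and 12.5 to 23.8 in Prlr+/-. NR4A2 was at 0.913 to 1.8 over the 7 mice and NR4A3 at 0.105 to 0.222. The NR4A1 promoter is shown because of a repeated motif, TGACGCA (reverse complement TGCGTCA, in capitals), chosen after this promoter had been read.
NR4A1, chr15:101266596-101266845, plus strand: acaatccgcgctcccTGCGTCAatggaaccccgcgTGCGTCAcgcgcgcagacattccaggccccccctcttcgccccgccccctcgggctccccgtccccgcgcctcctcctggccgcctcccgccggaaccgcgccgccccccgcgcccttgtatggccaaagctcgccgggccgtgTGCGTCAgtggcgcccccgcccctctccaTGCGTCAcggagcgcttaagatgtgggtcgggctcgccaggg
It holds 4 copies between −235 and −42, where 1.75% of all windows hold at least 1 copy and 1 window, that of NR4A1, holds 4 or more.

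**Figure D3:**
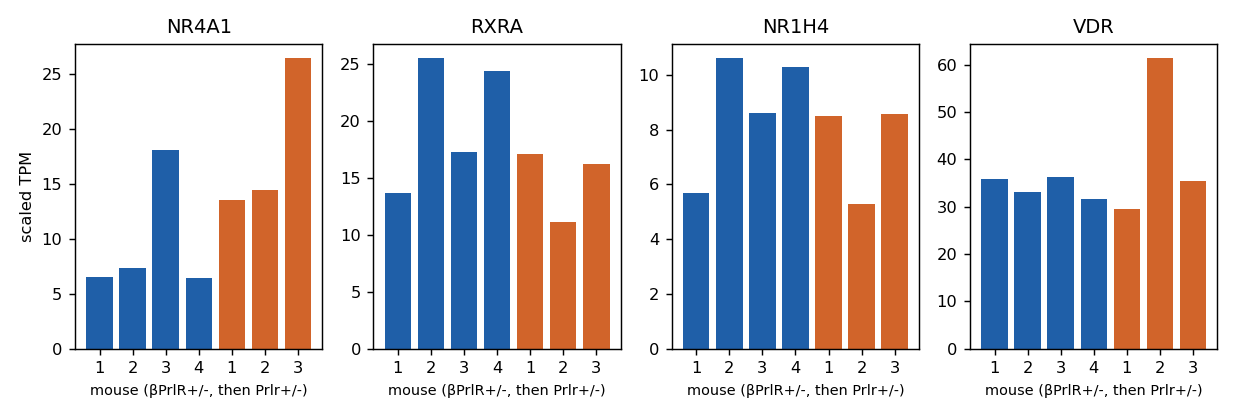
Scaled TPM per mouse, on axes that start at 0, of the 4 tested receptors other than ESR1 with the largest spread within groups, in βPrlR+/- mice 1 to 4 and Prlr+/- mice 1 to 3. RXRA and NR1H4 are lowest in βPrlR+/- mouse 1 and Prlr+/- mouse 2, VDR is highest in Prlr+/- mouse 2 at 61.3, and NR4A1 runs from 6.43 to 26.4.

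RXRA and NR1H4 varied together. Both were highest in βPrlR+/- mice 2 and 4, and lowest in βPrlR+/- mouse 1 and Prlr+/- mouse 2. Across the 7 mice r was 0.94 and rho 0.96, the largest r among the 351 pairs of the 27 tested receptors other than ESR1, which were looked at after the values had been seen. The permutation p of r was 0.00536, and 0.266 after adjustment over the pairs. It was 0.87 without 2 mice. No pair had an adjusted p under 0.05, and 9.97% had an unadjusted p under 0.05. The pairs share genes and mice, and the share among pairs of other genes was not computed, so 9.97% cannot be read as particular to the receptors.

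Acinar RNA ran in the opposite direction to both in these 7 mice. The mean of the acinar list on the log2 scale was 8.44, 5.93, 8.43 and 7.19 in βPrlR+/- mice 1 to 4, against 7.09, 8.28 and 7.37 in Prlr+/- mice 1 to 3. Among the relations added after the values had been seen, r with this mean was −0.78 for RXRA and −0.75 for NR1H4 (permutation p = 0.048 and 0.0591, adjusted p 0.0591 for each), with rho of −0.64 and −0.57 (permutation p = 0.139 and 0.2). Without βPrlR+/- mice 1 and 2 r was −0.57 and −0.60, so neither relation was established. They passed the threshold without βPrlR+/- mouse 3, with r of −0.86 and −0.90 (adjusted permutation p = 0.0292 and 0.0156), and with the insulin genes removed, with r of −0.82 and −0.80 (adjusted permutation p = 0.031 for each). The part of acinar RNA in the levels of RXRA and NR1H4 was not tested further.

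The promoters of RXRA and NR1H4 are shown as those of the pair that moved together, with AGGTCA or its reverse complement TGACCT in capitals.
RXRA, 1 of its 2 windows, chr2:27709042-27709291, plus strand: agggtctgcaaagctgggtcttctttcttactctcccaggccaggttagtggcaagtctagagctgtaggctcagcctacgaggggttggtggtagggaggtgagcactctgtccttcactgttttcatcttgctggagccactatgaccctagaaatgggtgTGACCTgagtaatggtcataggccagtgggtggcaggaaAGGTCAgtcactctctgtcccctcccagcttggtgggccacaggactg
NR1H4, chr10:89506659-89506908, minus strand: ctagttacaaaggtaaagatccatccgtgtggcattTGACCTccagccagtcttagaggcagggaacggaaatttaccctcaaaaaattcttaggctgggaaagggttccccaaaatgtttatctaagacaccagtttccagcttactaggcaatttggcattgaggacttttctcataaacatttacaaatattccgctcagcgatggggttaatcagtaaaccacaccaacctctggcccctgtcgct
RXRA holds 2 copies, at −87 and −48, and NR1H4 holds 1, at −214.

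NR5A2, a receptor known for its high expression in acinar cells, was low in these islets and followed acinar RNA. It was at 0.567, 0.207, 0.815 and 0.497 scaled TPM in βPrlR+/- mice 1 to 4, against 0.421, 0.773 and 0.493 in Prlr+/- mice 1 to 3. The lowest value was in βPrlR+/- mouse 2, which was lowest in the acinar list too. In the planned relation r was 0.93 (permutation p = 0.00317, adjusted over 4 relations 0.0127) and rho was 0.86 (permutation p = 0.0238), and r was 0.99 without βPrlR+/- mice 1 and 2. The adjusted p was 0.178 without βPrlR+/- mouse 2, with r = 0.84, and 0.0667 without βPrlR+/- mouse 3, with r = 0.92. NR0B2, a receptor without a DNA-binding region that NR5A2 is known to drive in liver, was at 0.462, 0.0463, 0.466 and 0.0902 in βPrlR+/- and at 0.0834, 0.4 and 0.257 in Prlr+/-. Its relation with the acinar mean was added after the values had been seen (r = 0.93, rho = 0.96, permutation p = 0.000397 and 0.00278, adjusted p of r 0.000992), and r was 0.96 without 2 mice. Neither NR5A2 (log2 fold change 0.05, SE 0.15) nor NR0B2 (exact permutation p = 0.914, two-sided) differed detectably between the groups.

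**Figure D4:**
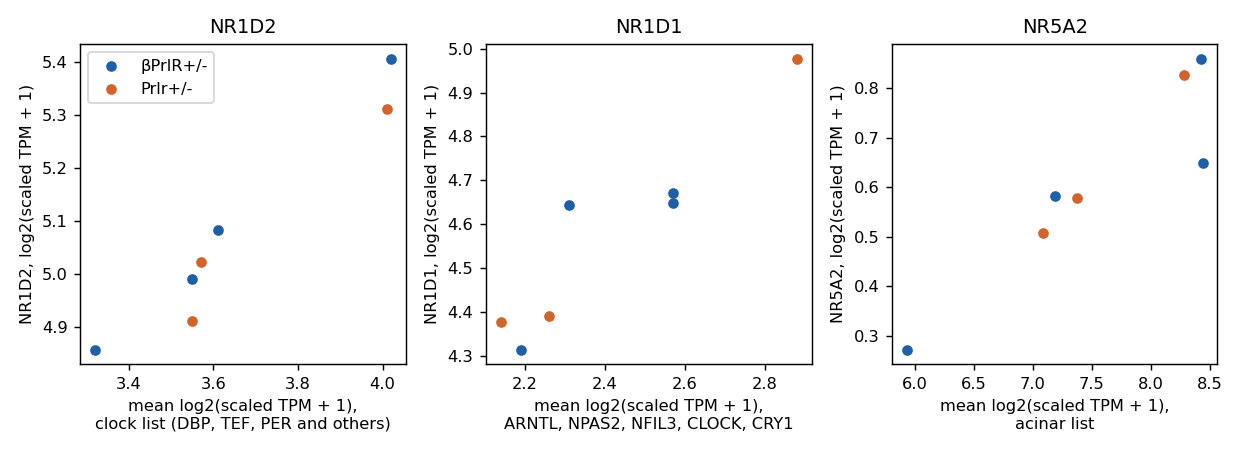
NR1D2 against the mean of 8 evening clock genes, NR1D1 against the mean of 5 clock genes of the opposite phase, and NR5A2 against the mean of the acinar list, each on the log2(scaled TPM + 1) scale with 1 point per mouse (4 βPrlR+/-, 3 Prlr+/-). The 7 points rise together in each panel, with r of 0.97, 0.94 and 0.93, and the groups are interspersed. The relation of NR5A2 was planned, whereas those of NR1D2 and NR1D1 were added after the values had been seen.

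HNF4A, which is mutated in a monogenic diabetes of the young, was at 6.97 to 9.71 scaled TPM and its relative HNF4G at 1.75 to 2.29, without a group difference (log2 fold changes 0.04 and −0.07, SE 0.11 and 0.09). One predicted transcript, XM_006498788.1, held 85.7% to 97.9% of HNF4A in each mouse. Of 12 HNF4A partners and targets 8 were tested and none was called. TTR, a thyroid hormone carrier that is also abundant in α-cells, was at 896, 909, 873 and 590 in βPrlR+/- and at 573, 600 and 585 in Prlr+/- (log2 fold change −0.46, SE 0.16, limma adjusted p = 0.966). All 5 α-cell markers, TTR included, had lower estimates in Prlr+/- (median −0.22), and their part in TTR was not tested. SLC2A2, the glucose transporter of β-cells, was at 148 to 251 in βPrlR+/- and at 242 to 285 in Prlr+/- (log2 fold change 0.46, SE 0.20, limma adjusted p = 1.0). The β-cell markers, SLC2A2 included, had higher estimates in Prlr+/- for 9 of 10 genes, with a median log2 fold change of 0.30 and a summed level of 4.51e+05 to 5.99e+05 in βPrlR+/- and 5.82e+05 to 7.15e+05 in Prlr+/-. Of the other endocrine and neural lists, all 4 δ- and PP-cell markers (median −0.22) and all 4 tested autonomic neuron markers (median −0.58, 2 of them called by limma) had lower estimates in Prlr+/-. Their part in the receptor and target values was not tested.

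Among the orphan receptors NR2F6 was the highest, at 20.5, 21, 18.6 and 18.1 in βPrlR+/- and at 21.2, 19.3 and 21 in Prlr+/-. NR2C2 was at 7.98 to 10.6 and NR2C1 at 4.13 to 4.7, the narrowest range of the tested receptors with the highest mouse at 1.14 times the lowest. NR6A1 was at 2.53 to 3.26, NR2F1 at 0.282 to 0.393 and NR2E3 at 0.0207 to 0.114. NR2F2, which marks stromal and venous cells, was at 0.99, 0.801, 1.51 and 1.05 in βPrlR+/- and at 0.711, 0.987 and 0.661 in Prlr+/-. Its log2 fold change was −0.22 (SE 0.13), and ran from −0.30, without Prlr+/- mouse 2, to −0.13, without βPrlR+/- mouse 3. The planned relation of NR2F2 with the stromal markers was not established (r = 0.66, rho = 0.50, permutation p = 0.108 and 0.267, adjusted p of r over 4 relations 0.161). It was r = 0.12 without 2 mice. NR5A1, the master regulator of adrenal and gonadal steroid cells, was at 0.00693 or below, and NR0B1, its partner, was listed at 0 in all 7 mice.

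Leaving ESR1 aside, the 27 tested receptors had log2 fold changes from −0.41 to 0.91, 18 lower and 9 higher in Prlr+/-, with a median of −0.036 against 0.0042 for all genes tested. None had an adjusted p below 1.0 by limma. The precision was moderate. For 22 of the 27, 81.5%, the 95% interval lay within 0.5 log2 units of 0, as it did for 81.4% of all tested genes, and for 26 it lay within 1 unit. The median SD within groups was 0.13, the same as that of all genes tested. Over the 14 lists of coregulators, ligand enzymes and targets, 133 of 174 genes were tested, 0 were called by limma, 8 (6.02%, against 4.52% of all tested genes) had an unadjusted p under 0.05 and 4 (3.01%, against 4.95%) of those tested did not overlap between the groups, among them IGFBP4, CCND1 and TGM2.

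**Figure D5:**
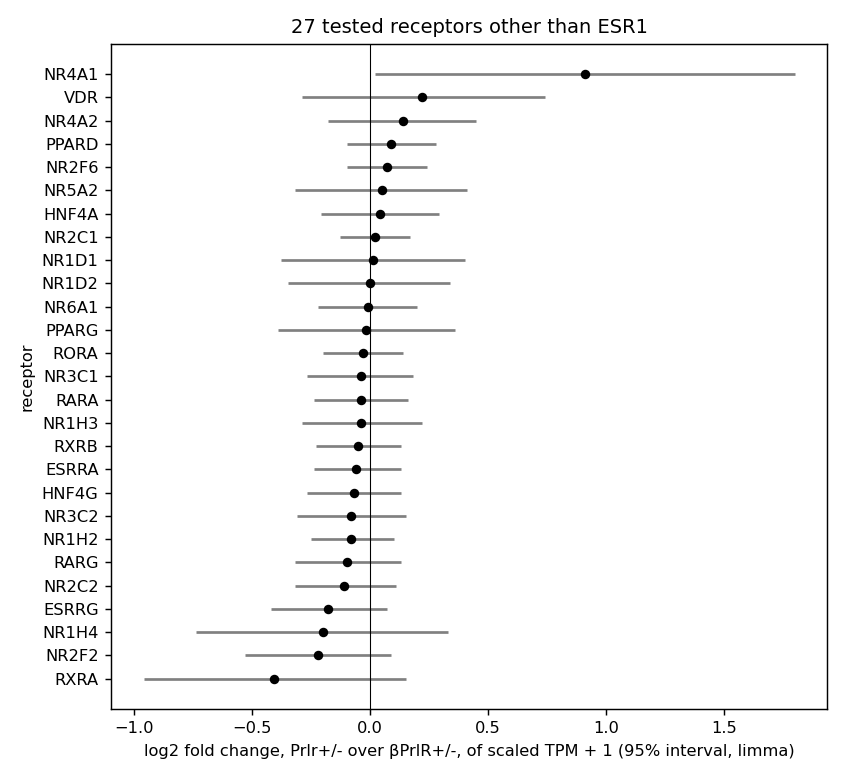
Log2 fold change of the 27 tested receptors other than ESR1, Prlr+/- (3 mice) over βPrlR+/- (4 mice), on the log2(scaled TPM + 1) scale, with 95% intervals from limma. Each interval includes 0 except that of NR4A1, which runs from 0.02 to 1.80.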

How the data were processed

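Poly(A) RNA was made into directional libraries, 1 per mouse. The authors mapped reads with kallisto 0.42.4 to mouse RefSeq transcripts, and the genome build is not given in the sources used here. The deposited TPM values have 1 fixed total in each mouse for genes and for transcripts, although the methods speak of FPKM. A gene's value equals the sum of its transcripts, and no counts were used. The methods state the reads sequenced per library, but the reads behind a gene's value are not in these tables, so no counting interval is given.

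The members and lists were chosen with earlier results of these data known. All listed receptors were accounted for. Values per mouse were given for called or non-overlapping receptors, the 8 highest, the 3 most variable within groups, ESR1, ESR2, PGR and those of the planned correlations. From each pathway list the called genes, up to 3 non-overlapping genes and the 2 highest were named, and other genes with an unadjusted p under 0.05 or on the clock lists were chosen after their values were seen. One list gene that the rule names is not reported here.

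TPM was divided by a median-ratio factor per mouse. Genes with a mean of at least 0.5 were tested on log2(TPM + 1) with limma 3.58.1 (R 4.3.3, trend, two-sided, Benjamini-Hochberg), a step tested on simulated data. Single values were tested by exact permutation of the mice. P-values measure the spread between these mice. Alternatives were other scalings, a pseudocount of 0.1, other filters, the acinar mean as a covariate, robust priors and each mouse left out. Promoters came from RefSeq on GRCm38.p6, and 40 of 43 members matched.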

Additional observations from a re-analysis of the deposited data

Results flagged for a closer look

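In the group of 4 βPrlR+/- mice, 3 of the 28 tested receptors had a mouse far from the others on the log2 scale, by Dixon's ratio of the gap to the range against its 95% critical value. Chance gives about 5% of such groups. NR1D1 was low in βPrlR+/- mouse 3, with a ratio of 0.909, at 18.9 scaled TPM against 24 to 24.5 in the other 3. NR4A1 was high in the same mouse, with a ratio of 0.873, at 18.1 against 6.43 to 7.37. HNF4G was low in βPrlR+/- mouse 1, with a ratio of 0.872, at 2.02 against 2.25 to 2.28. Without βPrlR+/- mouse 3 the log2 fold change of NR1D1 was −0.08 and that of NR4A1 was 1.23. The group of 3 Prlr+/- mice was too small for this ratio.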

How the results depend on the processing

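No paired analysis was possible because the numbers in the labels name single mice and no number occurs in both groups. ESR1 was called under each of the 15 alternatives at the gene level, with log2 fold changes of −7.71 to −5.70 and adjusted p of at most 0.000467 (limma), but the sum of its other transcripts gave −0.40 without passing the exact permutation test. It was the 1 receptor called under each alternative, and none of the 133 tested list genes was called. The count over all genes moved from 10 to 4 without the insulin genes, 18 with a pseudocount of 0.1, 4 with all genes above 0 and 6 with the acinar covariate, and ran from 2, without βPrlR+/- mouse 4, to 13 with single mice left out, being 5 without βPrlR+/- mouse 1, Prlr+/- mouse 1 or Prlr+/- mouse 2. The other 27 receptors kept their direction in 368 of 401 values, and none passed the threshold (smallest adjusted p 0.586). Estimates near 0 changed sign. Without scaling, where the median of all genes was −0.12, PPARD was −0.05, NR1D1 −0.13, HNF4A −0.09, NR2C1 −0.10, NR2F6 −0.07 and NR5A2 −0.0013. Upper-quartile scaling gave NR1D1 −0.01, and removing the insulin genes gave NR1D2 0.01 and NR6A1 0.002. With single mice left out, ESRRA ran from −0.11 to 0.02, NR3C1 −0.10 to 0.01, RARA −0.09 to 0.01, PPARG −0.16 to 0.13, NR1D1 −0.19 to 0.11, NR1D2 −0.12 to 0.10, RORA −0.07 to 0.0097, NR1H3 −0.10 to 0.07, VDR −0.07 to 0.44, HNF4A −0.04 to 0.10, HNF4G −0.12 to 0.005, NR2C1 −0.00017 to 0.05, NR5A2 −0.06 to 0.11 and NR6A1 −0.05 to 0.05. The correlation of NR5A2 with the acinar list ran from 0.84 to 1.0 and that of NR4A1 with the immediate early list from −0.71, without Prlr+/- mouse 3, to 0.37. The cause of these changes was not tested. The number of mice limits what could be detected, and the 15 receptors below the minimum were not tested by limma in the main analysis.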
